A study of Mus musculus with 2 samples.

Results

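A set of 10 genes of leukocyte adhesion were followed in mouse hearts on day 3 after myocardial infarction (MI). They comprise the integrin genes Itgam, Itgal, Itgax, Itga4 and Itgb2, the endothelial ligand genes Icam1 and Vcam1, the selectin genes Sele and Selp, and the selectin ligand gene Selplg. Every probe set that the array annotation paired with exactly 1 of these symbols was taken, which gave 19 probe sets for the 10 genes, out of 34945 probe sets for 18193 genes on the array. None was shared with another symbol, and all 10 genes matched RefSeq by Entrez identifier. Both groups were male C57BL/6J mice, 10 weeks old. In the infarct group the left anterior descending coronary artery was permanently ligated. In the sham group surgery was done but the artery was not tied. RNA from the hearts of 3 mice was pooled per group and hybridised to 1 array per pool, so that there were 2 arrays and no replicates, and no test between the groups was possible. Differences are infarct minus sham on the log2 scale of the deposited values.

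Leukocytes leave the blood in steps. Selectins on activated endothelium and platelets bind PSGL-1, the product of Selplg, and slow the cell to rolling; activated integrins on the leukocyte then hold it by binding ICAM-1 and VCAM-1, the products of Icam1 and Vcam1. The leukocyte integrins are dimers of an α and a β chain. The β2 chain encoded by Itgb2 pairs with αL (Itgal) to form LFA-1, with αM (Itgam) to form Mac-1 of monocytes and neutrophils, and with αX (Itgax) to form a complement receptor of myeloid and dendritic cells, whereas α4 (Itga4) pairs with β1 or β7 and binds VCAM-1. In the heart, this cascade brings neutrophils and then monocytes into the injured muscle after MI.

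The 9 of these genes that were bright enough to be compared fell into 2 sets by the size of their difference. Selp, Itgam, Itgax and Itgb2 were between 1.13 and 1.36 higher in the infarct pool (log2), that is 2.19-fold to 2.56-fold. Vcam1, Itgal, Itga4, Selplg and Icam1 were between 0.35 and 0.53 higher, which is 1.28-fold to 1.44-fold. By its brightest probe set, no gene had a difference between 0.53 and 1.13, a gap of 0.60. The 2 sets were formed from these same values, so the gap was not tested. The dim probe sets of Selp (0.64 and 0.80) lie within it. The SD of the difference between probe sets for 1 gene was 0.23 (pooled over 5190 genes), which gives 0.32 for a difference of 2 genes. This SD is an error of the probes only, since the spread between mice was not measured. Sele, the remaining gene, stayed under the median of each array and was not compared. Thus 4 of the 9 genes bright enough were at least 2-fold higher, against 3.73% of all 11961 genes compared, and 0 were 2-fold lower, against 1.26%. A gene counted as bright enough if its brightest probe set was at or above the array median in at least 1 pool. Itgax met this in the infarct pool alone. Their median was 0.53, beside 0 for all genes compared. All 9 lay above 0, as did 49.5% of all genes, and of the 19 probe sets, dim ones included, 17 lay above 0, as did 45.3% of all named probe sets. None reached 1.4, the threshold of the study.

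The position of these differences depends on the zero of the scale. Over 8 housekeeping genes, the mean difference was 0.38, from -0.44 (Sdha) to 1.12 (Gusb), while the added hybridisation controls were 0.32 lower and the added poly-A controls 0.057 higher. After centring on the housekeeping genes, 0 of the 9 genes remained 2-fold higher (Selp was closest, at 0.98), and Icam1 and Selplg lay at -0.029 and -0.027. The distance between the higher and the lower set is the same under any such centring. The array controls for the 5′ and 3′ end of Actb differed by 0.67 and 0.70, and those of Gapdh differed by 0.053 and 0.051. The 2 named probe sets of Actb disagreed in sign (-0.62 and 0.82). The cardiomyocyte marker Myh6 had 14.85 in the sham and 14.72 in the infarct pool by its brighter probe set, and the other differed by -0.67. By their brightest probe sets, the 6 cardiomyocyte markers ran from -0.38 (Tnni3) to 0.055 (Actc1), with a median of -0.098. Less bright probe sets reached -0.60 for Tnnt2 and -0.34 for Pln, and 0.036 for Mb.

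**Figure D1:**
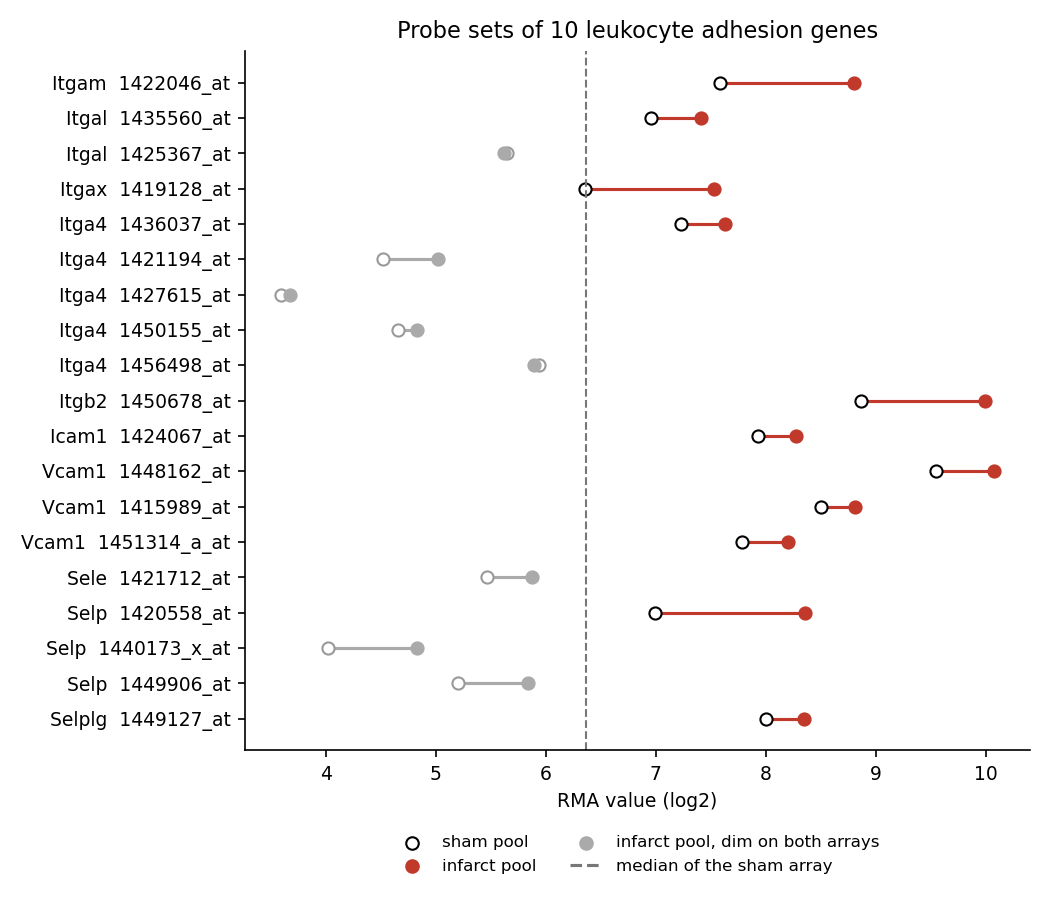
RMA values (log2) of all 19 probe sets of the 10 genes in the sham pool (open) and the infarct pool (filled circles), 1 array each, with those under both array medians in grey. The lines of Selp, Itgam, Itgax and Itgb2 are the longest among the probe sets in red, and 2 grey probe sets, 1 of Itgal and 1 of Itga4, run slightly the other way.

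**Figure D2:**
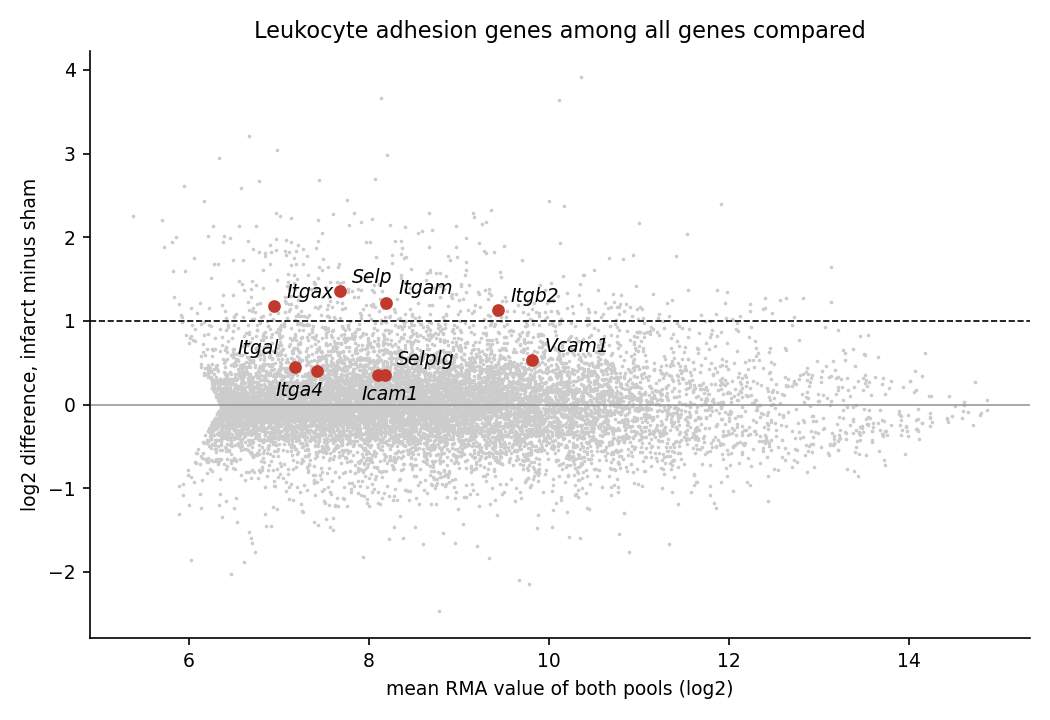
Log2 difference (infarct minus sham) against mean log2 value for 11961 genes (grey), with the 9 adhesion genes bright enough in red and the 2-fold line dashed. Selp, Itgam, Itgax and Itgb2 lie above the line and the other 5 between 0.35 and 0.53.

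Promoter sequences are shown for genes whose differences set the pattern. Itgam and Itgax differed alike. Selp and Icam1, which are both genes of activated endothelium, differed unequally. RefSeq windows (build GRCm38.p6) were given for 6 of the 10 genes. Each sequence runs 5′ to 3′ over the 250 bases before the start site, and capitals mark the motifs found.
Itgam (chr7:128062390-128062639, + strand): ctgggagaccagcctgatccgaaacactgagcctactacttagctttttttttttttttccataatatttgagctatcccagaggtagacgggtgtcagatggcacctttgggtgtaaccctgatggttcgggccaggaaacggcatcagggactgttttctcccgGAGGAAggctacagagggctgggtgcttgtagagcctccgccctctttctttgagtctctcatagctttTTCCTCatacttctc
Itgax (chr7:128129300-128129549, + strand): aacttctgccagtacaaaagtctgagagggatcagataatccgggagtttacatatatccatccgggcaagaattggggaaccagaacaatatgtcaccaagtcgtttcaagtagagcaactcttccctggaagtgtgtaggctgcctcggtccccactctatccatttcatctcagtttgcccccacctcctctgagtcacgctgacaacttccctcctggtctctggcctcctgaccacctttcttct
Selp (chr1:164115014-164115263, + strand): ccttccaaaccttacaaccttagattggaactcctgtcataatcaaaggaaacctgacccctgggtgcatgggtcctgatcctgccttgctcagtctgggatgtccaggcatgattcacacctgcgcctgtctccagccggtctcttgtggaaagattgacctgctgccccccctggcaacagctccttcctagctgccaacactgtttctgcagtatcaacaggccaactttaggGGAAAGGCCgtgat
Icam1 (chr9:21015690-21015939, + strand): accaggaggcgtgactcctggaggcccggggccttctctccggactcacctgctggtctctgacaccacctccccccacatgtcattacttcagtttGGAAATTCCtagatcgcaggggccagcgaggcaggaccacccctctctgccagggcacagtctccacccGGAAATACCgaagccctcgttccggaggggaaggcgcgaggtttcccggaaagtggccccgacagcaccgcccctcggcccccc

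In all, 3 motifs were searched on both strands of the 250 bases: the κB motif of NF-κB as GGNNTTNCC, the ETS motif that PU.1 of myeloid cells binds as GAGGAA, and the TATA box as TATAAA. Itgam held the ETS motif at positions -84 and -15 from the start site, and Itgax held none of the 3. Icam1 held the κB motif at -153 and -84 (GGAAATTCC and GGAAATACC), and Selp held it at -14 (GGAAAGGCC). The window of Sele had the ETS motif (-107) and the TATA box (-49), and that of Itga4 had none. The κB motif is in 13.5% of all 32851 windows, the ETS motif in 23.3% and the TATA box in 12.4%, so that matches in 2, 2 and 1 of the 6 windows are a description of the letters only.

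Among the integrins, the chains of Mac-1 and of the αX dimer were higher by nearly the same amount. Itgam, the αM chain (probe set 1422046_at), had 7.59 in the sham and 8.80 in the infarct pool, a difference of 1.22 or 2.32-fold. Itgb2, the shared β2 chain (1450678_at), went from 8.86 to 10.00 (1.13, 2.19-fold). Itgax, the αX chain known as CD11c (1419128_at), had 6.36 and 7.53 (1.18, 2.26-fold). These 3 differences lay within 0.085 of each other. Each rests on 1 probe set, and the sham value of Itgax was 0.0068 below the array median, where there is little signal. Itgam ranked 266th, Itgax 293rd and Itgb2 329th of the 11961 genes by difference.

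Itgal, the αL chain of LFA-1, differed less than the other β2 partners Itgam and Itgax. Its brighter probe set (1435560_at) had 6.96 in the sham and 7.41 in the infarct pool, a difference of 0.45. This was 0.68 less than that of Itgb2 and 0.76 less than that of Itgam. The SD between probe sets gives 0.32 for a difference of 2 genes and is an error of the probes only. Itgal and these genes fall in different sets formed from the same values, so the contrast was not tested. The second probe set of Itgal (1425367_at) was dim and differed by -0.028. LFA-1 is carried by lymphocytes as well as by myeloid cells. Itgal lies on chromosome 7 like Itgam and Itgax. There are 35 protein-coding genes between Itgal and Itgam, and no protein-coding gene separates Itgam from Itgax. Itgb2, whose difference was near those of Itgam and Itgax, lies on chromosome 10. The part of gene position in these differences was not tested.

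Itga4, the α4 chain of VLA-4, was measured by 5 probe sets, of which 4 were dim. The brightest (1436037_at) had 7.22 and 7.62, a difference of 0.40. The dim ones ran from -0.047 to 0.50. Its partner chains differed by 0.70 (Itgb1, β1) and 0.17 (Itgb7, β7), and the 6 probe sets of Itgb1 ran from -0.19 to 0.73. Of the other leukocyte integrin chains, Itga9, whose product also binds VCAM-1, differed by 0.36, but its 3 probe sets ran from 0.072 to 0.95. Itgae was dim. The median of the 3 chains bright enough was 0.36, and 0 of them were 2-fold higher, against 3.73% of all genes.

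Selplg, which encodes PSGL-1 on leukocytes, had 8.00 in the sham and 8.35 in the infarct pool by its single probe set (1449127_at). The difference of 0.35 was 0.63 less than that of the brighter probe set of Ptprc, which encodes the leukocyte antigen CD45. It was close to the 0.37 of the second probe set of Ptprc. Selplg was among the genes with the smallest differences here, although it belongs to the leukocyte side of the cascade as do Itgam and Itgb2.

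On the endothelial side, Selp had the largest difference of all 10 genes. P-selectin, its product, is stored in endothelial cells and platelets and is brought to the surface upon activation. Its brightest probe set (1420558_at) had 6.996 in the sham and 8.35 in the infarct pool, a difference of 1.36 (2.56-fold), rank 203 of 11961 genes. The other probe sets of Selp were dim and gave 0.64 (1449906_at) and 0.80 (1440173_x_at, which may bind several transcripts), so that all 3 had the same sign but 1 alone passed 2-fold. With the mean over probe sets in place of the brightest, Selp and Itga4 were no longer bright enough to be compared.

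Vcam1, the ligand of α4 integrins, was the member measured best, with all 3 probe sets bright. They had 9.55 and 10.07 (1448162_at, difference 0.53), 8.50 and 8.81 (1415989_at, 0.31), and 7.78 and 8.20 (1451314_a_at, 0.41). Icam1, the ligand of LFA-1 and Mac-1, had 7.93 and 8.28 (1424067_at), a difference of 0.35. Sele, which encodes the E-selectin of activated endothelium, had 5.46 and 5.87 (1421712_at), both below the array medians of 6.36 and 6.35. Its difference of 0.41 is therefore that of a value with little signal. The difference of Selp exceeded that of Icam1 by 1.01 and that of Vcam1 by 0.83, against an SD of 0.32 for a difference of 2 genes. These excesses rest on the 1 bright probe set of Selp and were not tested. Its dim ones gave 0.64 and 0.80, nearer to Icam1 and Vcam1. Sele and Selp both lie on chromosome 1.

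With respect to receptors and their ligands, the pairs were unequal in part. Itga4 and its ligand Vcam1 differed by similar amounts (0.40 and 0.53), as did Itgal and Icam1 (0.45 and 0.35). By contrast, Itgb2 exceeded Icam1 by 0.78, and the brightest probe set of Selp exceeded its ligand Selplg by 1.00.

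**Figure D3:**
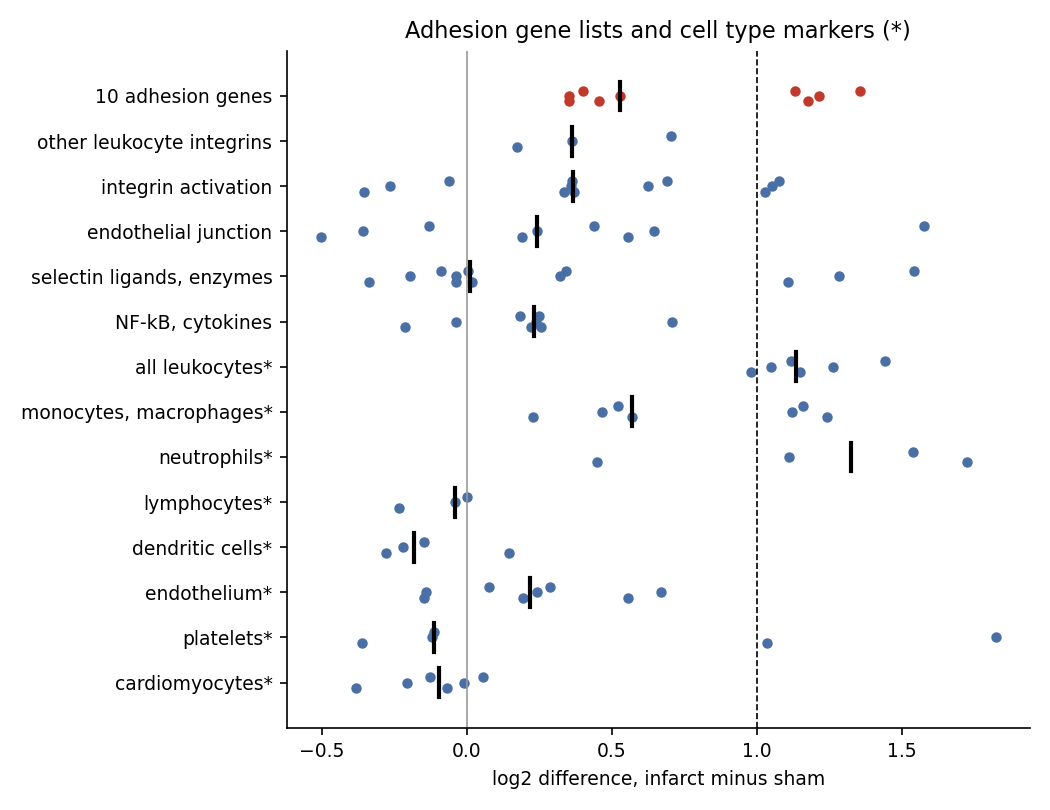
Log2 difference (infarct minus sham) of the genes bright enough in each list, 1 point per gene, with the median as a black bar, the 2-fold line dashed and marker lists starred. Medians were 0.53 for the 9 adhesion genes bright enough, 1.13 for markers of all leukocytes, 0.22 for markers of endothelium and -0.11 for markers of platelets.

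Markers of the cells that carry these molecules differed too. All 6 markers of leukocytes as a whole were higher, from 0.98 (Ptprc) to 1.44 (Lcp1) by their brightest probe sets, with a median of 1.13, near the differences of Itgam, Itgax and Itgb2. Their other probe sets disagreed in part: the second of Ptprc gave 0.37, the 3 of Coro1a ran from 0.36 to 1.46 and the 5 of Laptm5 from -0.29 to 1.05. The values of the 6 markers ran from 8.69 to 10.06 in the sham and from 9.96 to 11.11 in the infarct pool. The 4 neutrophil markers bright enough ran from 0.45 (Cxcr2, dim in the sham pool) to 1.72 (S100a8), with Csf3r at 1.11. The 7 markers of monocytes and macrophages ran from 0.23 (Csf1r) to 1.24 (Cd68). By contrast, the 3 lymphocyte markers bright enough ran from -0.23 (Cd8a) to 0 (Cd4), and Cd3e had 7.20 and 7.16. The 4 dendritic cell markers ran from -0.28 (Siglech) to 0.14 (Cd209a). In pooled whole hearts, more cells of a type and more RNA per cell cannot be told apart, and the part of cell numbers in the integrin differences was not tested.

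Endothelial markers differed less than the brightest probe set of Selp. The 8 markers ran from -0.15 (Tek) to 0.67 (Cldn5), with a median of 0.22, and Cdh5, which encodes VE-cadherin, had 8.63 and 8.88 (0.24). By its brightest probe set, Selp exceeded Cdh5 by 1.11, whereas Vcam1 and Icam1 exceeded Cdh5 by 0.29 and 0.11, no more than the SD of 0.32. Of the platelet markers, Itga2b, the αIIb chain, differed by -0.11, and Gp9 was lowest (-0.36). The chemokine genes Ppbp (1.83, but below the sham median) and Pf4 (1.04) passed 2-fold. The part of platelets in the difference of Selp was not tested.

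Of 58 further genes of the adhesion cascade, 54 had a probe set and 44 were bright enough. Of these, 7 were at least 2-fold higher, against 3.73% of all genes compared, and 0 were lower, against 1.26%. In all, 31 lay above 0, as did 49.5% of all genes, and 13 lay below. The median was 0.25. Of the 7, Gcnt1 was bright enough in the infarct pool alone. Genes of integrin activation held 3 of the 7. Skap2, an adaptor of integrin activation in myeloid cells, had 8.45 and 9.53 (1.08), although its 3 probe sets ran from -0.098 to 1.08. Fermt3, which encodes kindlin-3, the activator that binds β chains in blood cells, had 8.99 and 10.04 (1.05), with 4 probe sets from 0.38 to 1.16. Fyb, the adaptor ADAP, had 7.83 and 8.86 (1.03). Tln1, which encodes talin, differed by 0.62. The lowest of this list was Cyth1 (-0.35), a factor that binds the β2 chain. The median of these 12 genes was 0.37.

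Genes of endothelial junctions and further ligands went both ways, 6 above 0 and 3 below among 9 (median 0.24). Of all genes compared, 49.5% lay above 0. Mcam, an adhesion molecule of endothelial and mural cells, had 8.00 and 9.58 (1.58, 1 probe set) and was the only one of the 9 that was 2-fold higher. Icam2, an LFA-1 ligand of resting endothelium, differed by 0.65 and Pecam1 by 0.56. Lowest was Jam2 (-0.50), a junctional adhesion molecule, with 5 probe sets from -0.60 to -0.023.

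Selectin ligands and the enzymes that build them had a median of 0.011 over 12 genes, 7 above 0 and 5 below, beside 49.5% of all genes above 0. Cd24a, which encodes a P-selectin ligand, had 8.30 and 9.84 (1.54), with 3 probe sets from 1.54 to 1.63. Gcnt1, which encodes the enzyme that makes the core branch needed on PSGL-1, had 5.19 and 6.47 (1.28), and was dim in the sham pool. Cd44, which encodes a ligand of E-selectin, had 9.40 and 10.51 (1.11), but its 4 probe sets ran from -0.13 to 1.26. Lowest was St3gal6 (-0.34), a sialyltransferase. Fut7, the fucosyltransferase that completes selectin ligands, was dim on both arrays (6.04 and 5.76).

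Genes of NF-κB and of the cytokines that induce Icam1, Vcam1 and Sele in endothelium differed by less than 2-fold in all 8 cases (median 0.23). Of all genes compared, only 3.73% were 2-fold higher and 1.26% lower. Il1b was the highest, at 7.19 and 7.89 (0.71), and Tnf differed by 0.24. Nfkb2 was lowest (-0.21), and its probe sets disagreed in sign (-0.21 and 0.32). The differences of Icam1 (0.35) and Vcam1 (0.53) lay within the range of this list.

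**Figure D4:**
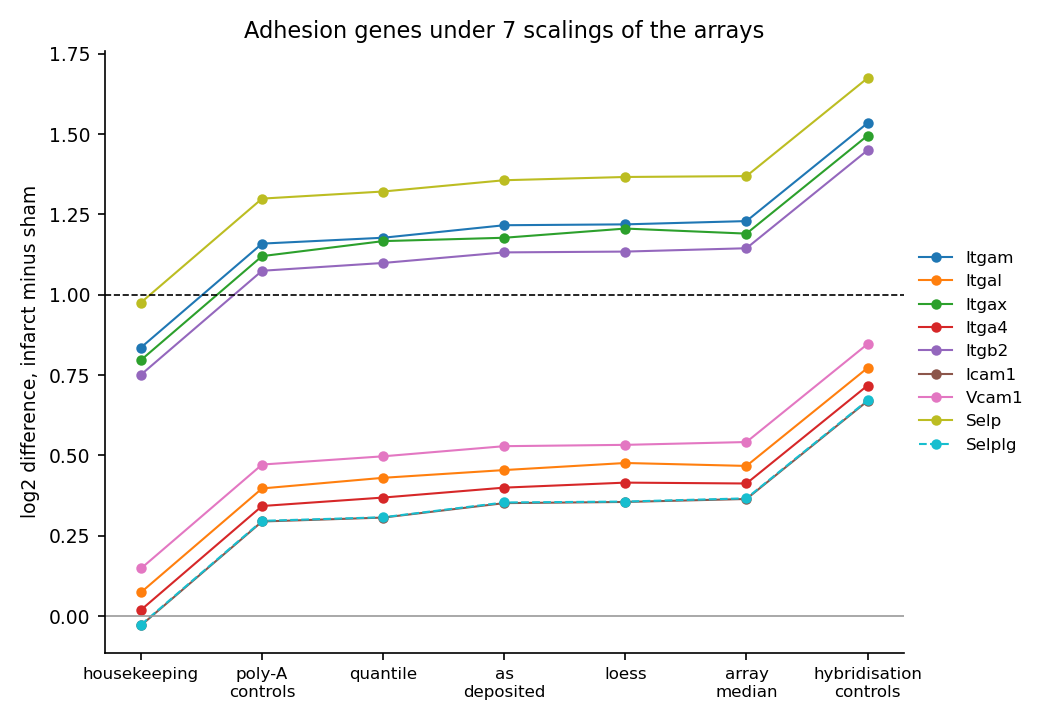
Log2 difference (infarct minus sham) of the 9 adhesion genes bright enough under 7 scalings of the arrays, 1 line per gene. Selp, Itgam, Itgax and Itgb2 lie above the other 5 genes in each scaling. They lie above the dashed 2-fold line except after centring on the housekeeping genes, where Icam1 and Selplg lie just below 0. Centring on the array medians, the housekeeping genes or the added controls moves all genes alike and cannot change their distance. The mean over probe sets, under which Selp and Itga4 were not bright enough, is not drawn.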

How the data were processed

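Hearts were frozen 3 days after ligation or sham operation, RNA was extracted with ISOGEN and an RNeasy kit, and biotinylated cRNA of each pool of 3 hearts was hybridised to a GeneChip Mouse Genome array by the authors. The deposited values are log2 values made by RMA per the labels, with background correction, normalization between both arrays and 1 value per probe set; the software version is not given in the sources used here. RMA equalises the arrays, so a change in total mRNA per heart cannot be seen. No genome build goes with the values.

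Of 45101 probe sets, 34945 had 1 symbol, 932 had several, and 64 were controls. The brightest probe set by mean value stood for a gene, which was compared if this value was at or above the 50th percentile (the median) in at least 1 pool. Called means a log2 difference of at least 1 (2-fold). With 1 array per group no p-value and no leave-one-out value was possible. The precision is limited by the number of arrays. The SD between probe sets was pooled over genes with at least 2 bright ones. The 10 genes were given, and all lists were chosen, with earlier results of these data known. All 10 genes are named with every probe set, and of each further adhesion list the 2-fold genes, the highest and the lowest. Marker lists are given by counts, ranges and medians with their defining markers, and others named were chosen after their values were seen. Symbols, gene order and promoters came from RefSeq tables (GRCm38.p6). The procedure was run on simulated arrays with shifts larger than the differences of the 10 genes and noise smaller than the SD between probe sets. This checks the calculation only and does not bear on the values of these genes. Python 3.11.15, numpy 2.4.6, pandas 2.3.3, statsmodels 0.14.6 and matplotlib 3.10.9 were used. Alternative settings were 6 scalings of the arrays (loess span 0.4), the mean over probe sets, leaving out _x_at and _s_at probe sets, no filter and the 75th percentile as filter, a threshold of 1.4, and counting probe sets in place of genes. Results of some genes of the lists are not reported here.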

Additional observations from a re-analysis of the deposited data

How the results depend on the processing

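The count of 4 adhesion genes at least 2-fold higher was 0 after centring on the housekeeping genes and 0 at a threshold of 1.4. Their median of 0.53 was 0.15 after centring on the housekeeping genes, 0.85 after centring on the hybridisation controls and 0.83 with the 75th percentile as filter, which leaves fewer genes. Of 85 values of single adhesion genes under the alternatives, 29 could not move, since a filter or a choice of probe sets does not touch them. Of the other 56, 37 moved by less than the SD between probe sets, 17 moved up or down by more but kept their sign, and 2 changed sign: Icam1 (-0.029) and Selplg (-0.027), both after centring on the housekeeping genes. Each centring shifts all genes by the same amount, so under it these counts follow the size of the shift and not the gene. Without a centring, only Itgal moved by more, to 0.21 with the mean over probe sets. Among all genes, 446 higher and 151 lower became 187 and 663 after centring on the housekeeping genes, 962 and 40 after centring on the hybridisation controls, 178 and 34 at a threshold of 1.4, and 722 and 244 when probe sets were counted. The housekeeping centring moved the median of all genes by -0.38 and the hybridisation centring by 0.32. List medians below 0 after centring on the housekeeping genes were those of the selectin ligands and enzymes (-0.37), NF-κB and cytokines (-0.15), endothelial junctions (-0.14), other integrin chains (-0.016) and integrin activation (-0.014). That of the selectin ligands and enzymes was also -0.046 after centring on the poly-A controls and -0.020 under quantile normalization. Which zero is right was not tested. No paired analysis was possible because each group had 1 array.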
